A study of Mus musculus with 132 samples.

Results

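Promoter-proximal CTCF sites were defined as the peaks of a CTCF ChIP-seq list whose midpoint lies within 2 kb of a gene start. The rule found 4464 such peaks among the 44513 of the list (10.03%, Wilson 95% interval for counting error 9.75% to 10.3%), and they lay near the starts of 4493 of 24961 genes listed at a single locus (18.0%). The start was the 5′ end of the gene's span in the count table, in mm9 coordinates. The CTCF peaks came from 416B, a mouse myeloid progenitor cell line (2 ChIP-seq libraries merged by the authors), whereas accessibility and expression were measured in an in vitro differentiation of E14-TG2a mouse embryonic stem cells (mESCs), so that binding of CTCF in the differentiating cells themselves was not measured here. ATAC-seq peaks were available as a merged list for Flk1+ mesoderm at day 4 (4 libraries) and for CD41+ hematopoietic progenitor cells (HPCs) at day 7 (2 libraries). By their labels, the mesoderm libraries are technical replicates of 2 biological replicates. Both HPC libraries are technical replicates of a single biological replicate. By the study's methods, the ATAC-seq cells carried a Venus reporter at Runx1 and an mCherry transgene under the Runx1 +23 enhancer, while the labels name the parental line. RNA-seq of the poly(A)-minus fraction, counted over exons and introns and thus reading nascent RNA too, comprised wild-type mESCs at day 0 (n = 2 libraries, labelled technical replicates), Flk1+ mesoderm (n = 3) and HPCs (n = 4). It further comprised clones with a CRISPR/Cas9 deletion of the CTCF site at the distal (P1-CTCF-KO) or the proximal (P2-CTCF-KO) promoter of Runx1, as mesoderm (n = 3 each) and HPCs (n = 3 for P1-CTCF-KO and n = 5 for P2-CTCF-KO, of 3 clones each). Wild-type mesoderm and HPCs came from clones named C8.1, C6.1 and B9.3, the last with a second HPC library (B9.3-2).

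CTCF is a zinc finger protein that binds a long, non-palindromic DNA motif and halts the loop-extruding cohesin complex, so that bound sites often mark the ends of chromatin loops and domains. Many bound sites lie far from genes, but CTCF also occupies promoters, where it may tether a promoter to distant enhancers. Runx1, the master regulator of blood formation, has such a site at each of its promoters, and the study deleted these sites.

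Total counts were 20532578 and 24283287 in mESCs, 18233679 to 21634629 in wild-type mesoderm and 8293575 to 10733304 in wild-type HPCs, and the knockout libraries held 7805102 to 24406998. Genes at promoter-proximal CTCF sites received 866835 and 1601693 of these counts in mESCs, 74715 to 162839 in wild-type mesoderm and 70773 to 133953 in wild-type HPCs. Levels in mESCs were therefore read at greater depth than those of later stages. The study's methods mention a removal of ribosomal RNA for mESCs and not for the differentiated stages, so that stage and library preparation cannot be told apart in comparisons with mESCs. The summed level of the mESC markers Pou5f1, Sox2 and Nanog was 13.5 to 16.7 CPM (counts scaled to the effective library size) in mESCs and at most 0.891 CPM later. The HPC markers Itga2b, Gfi1b, Tal1 and Runx1 summed to 151 to 250 CPM in HPCs against 10.2 to 26.4 CPM in mesoderm, and the mesoderm markers Kdr, Pdgfra, Eomes and T to 33.4 to 59.9 CPM in mesoderm. Endothelial markers (Cdh5, Pecam1, Tek) varied between mesoderm libraries, with 79.8 CPM in B9.3, 10.2 CPM in C8.1 and 1.80 CPM in C6.1. The other marker lists (cardiac, neural and mature myeloid) reached at most 1.73 CPM in any library. In such bulk libraries, fewer cells of a type and less RNA per cell cannot be told apart.

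Neither Runx1 site was a member by the rule. The CTCF peak at P1 (chr16:92828270-92828500) has its midpoint 2066 bp upstream of the gene start at position 92826319, just past the 2 kb limit. The peak at P2 (chr16:92698817-92699340) lies 1506 bp upstream of the Runx1 start at 92697573, the only one that 2 GENCODE vM1 transcripts share, which is inside the gene in the count table and thus no gene start there. Both are described below as reference sites. The P1 peak shared bases with ATAC-seq peaks of both stages, whereas the P2 peak did so in mesoderm only. The limit cut through a band of similar sites, with 144 peaks whose nearest start was 1900 to 2000 bp away and 164 at 2000 to 2100 bp. The members nearest inside it were the peak 2000 bp downstream of the start of Gnat1 (rod transducin) and the peak 2000 bp upstream of Slc22a14 (a solute carrier). Those nearest outside lay 2001 bp downstream of Khdrbs2 and 2001 bp upstream of Vav1, a signalling protein of blood cells.

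The following stretches of 50 bases show what a site looks like at the Runx1 promoters and at 5 genes that lead the comparisons of expression below. They were read from the NCBIM37 (mm9) genome in the direction of the motif, with the 12 bases of the searched core in capitals.
Runx1 P1, 2066 bp upstream (chr16:92828379-92828428, plus strand): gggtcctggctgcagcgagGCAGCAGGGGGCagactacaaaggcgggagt
Runx1 P2, 1506 bp upstream (chr16:92699041-92699090, plus strand): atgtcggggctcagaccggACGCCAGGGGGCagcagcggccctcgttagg
Aftph, 1266 bp upstream (chr11:20642791-20642840, minus strand): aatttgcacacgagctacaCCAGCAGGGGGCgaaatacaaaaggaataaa
Zfp423, 1581 bp upstream (chr8:90485091-90485140, plus strand): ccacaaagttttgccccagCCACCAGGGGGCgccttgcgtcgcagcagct
Bmp2, 1865 bp upstream (chr2:133376020-133376069, plus strand): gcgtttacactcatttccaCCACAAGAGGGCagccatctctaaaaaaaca
Ccdc88c, 641 bp upstream (chr12:102267593-102267642, minus strand): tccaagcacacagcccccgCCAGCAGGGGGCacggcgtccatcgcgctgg
Tdgf1, 1634 bp downstream (chr9:110846983-110847032, minus strand): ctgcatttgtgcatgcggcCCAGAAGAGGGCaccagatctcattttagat
The core searched was CCNNNAGNNGGC, on both strands of each peak, and the 5 member sites matched all 7 of its fixed letters. The Runx1 peaks held no such match. The stretches shown match 6 of the 7 letters, and they were picked, after the sequences were seen, as those that kept the right-hand letters of the stricter form CCNNNAGGNGGC. Both lie on the strand opposite to Runx1. The looser form with 6 letters is no mark of CTCF, since it was present in 92.5% of member peaks but also in 50.3% of windows of equal width displaced by 1 kb beyond the peak edge.

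Of the member peaks, 2135 of 4464 held the core (47.8%, interval 46.4% to 49.3%), against 6.14% of 8926 displaced windows and 8.87% of windows of 257 bp centred on every gene start. The stricter form was present in 23.3% of member peaks and in 1.84% of displaced windows. Among the 40049 CTCF peaks over 2 kb from any gene start, 53.3% held the core, more than among members, but the stricter form was less frequent there (19.5% against 23.3%), so that the direction of the difference depends on the form searched. In member peaks, the share was 44.1% within 200 bp of the start and 51.5% at 1000 to 2000 bp. The core lay on the strand of the nearest gene in 55.8% of the member peaks that had it (1192 of 2135, interval 53.7% to 57.9%). For peaks upstream of the start this share was 59.0% (56.4% to 61.6%), and downstream it was 50.4% (46.9% to 53.9%), an interval that includes equal use of the strands. At Runx1, both of the stretches printed above lie upstream and on the opposite strand.

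CTCF peaks were concentrated just upstream of gene starts. The nearest start lay downstream of the peak midpoint for 2711 of 4464 peaks, so that 60.7% were upstream (59.3% to 62.2%), 1751 were downstream and 2 lay on the start base. The 200 bp immediately upstream held 906 peaks and the 200 bp immediately downstream 268, whereas no other bin of 200 bp within 2 kb held more than 290. Within 200 bp of a start, 77.0% of 1176 peaks were upstream (74.6% to 79.4%), compared with 52.0% of 1584 peaks at 1000 to 2000 bp (49.5% to 54.4%). The median distance was 649 bp, and 956 peaks (21.4%) covered the start base itself. The P1 site of Runx1, at 2066 bp upstream, thus lay in the sparse outer range of this distribution, and not in its peak. The P2 site was not placed in it. Its distance of 1506 bp is to a transcript start inside the gene, and the distribution was drawn for gene starts only.

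**Figure D1:**
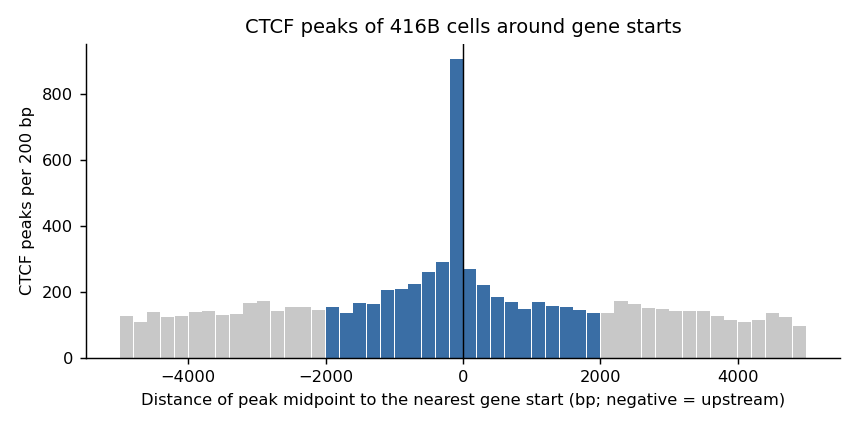
Number of 416B CTCF peaks (y axis, peaks per 200 bp) by the distance of the peak midpoint to the nearest gene start (x axis, bp, negative values upstream), with members in blue and peaks outside 2 kb in grey. The bar just upstream of the start holds 906 peaks and its downstream neighbour 268.

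The midpoint was intergenic for 51.1% of member peaks in GENCODE vM1, intronic for 31%, in an untranslated or noncoding exon for 12.8% and in a coding exon for 5.06%. A single gene start lay within 2 kb of 3903 peaks, 530 peaks had 2 and 31 had 3 or more (up to 6), so that many genes share a site. Starts on both strands were found at 472 peaks, and 93 of these peaks lay upstream of the nearest start on either strand, between divergent genes. Most genes had 1 site (3965 genes), 483 had 2 and 45 had 3. Genes with 3 sites included Adap1 (an Arf GTPase-activating protein), Alyref2 (an mRNA export factor) and the long noncoding or predicted genes AI506816, 1700063D05Rik and 5031434O11Rik. In AI506816, the site 134 bp upstream was open in both stages, while those 1465 bp upstream and 848 bp downstream were open in neither and held the core on the opposite strand. By RefSeq gene type, sites were found at 18.8% of 20561 protein-coding genes (18.3% to 19.4%), 15.0% of 2541 long noncoding RNA genes (13.6% to 16.4%), 12.7% of 1199 miRNA genes (10.9% to 14.7%) and 11.2% of 365 transcribed pseudogenes (8.39% to 14.9%). The share was highest for snoRNA genes (28 of 116, 24.1%), with a wide interval (17.3% to 32.7%).

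Accessibility was measured as an overlap of at least 1 bp with an ATAC-seq peak. Of the promoter-proximal peaks, 2305 (51.6%, 50.2% to 53.1%) were open in mesoderm and 1290 (28.9%, 27.6% to 30.2%) in HPCs. Among CTCF peaks further from gene starts, 28.9% were open in mesoderm and 11.0% in HPCs, a difference of 22.7 percentage points (95% interval 21.2 to 24.3) and of 17.9 points (16.6 to 19.3), respectively. These intervals treat peaks as independent and cover counting error only. The HPC list is shorter (29037 peaks against 76766 in mesoderm, from 2 and 4 libraries), which moves with the lower share in HPCs in both kinds of peak, and its part in the difference between stages was not tested. By class, 1218 member peaks were open in both stages (27.3%), 1087 in mesoderm only (24.4%), 72 in HPCs only (1.61%) and 2087 in neither (46.8%). Of member peaks open in mesoderm, 52.8% remained open in HPCs (50.8% to 54.9%), compared with 32.2% (31.4% to 33.1%) of the more distant CTCF peaks. The P1 site of Runx1 thus had the pattern of the first class and the P2 site that of the second.

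Accessibility fell off with distance from the start. In mesoderm, 83.2% of peaks within 200 bp were open (80.9% to 85.2%), 61.6% at 200 to 500 bp, 42.0% at 500 to 1000 bp and 29.2% at 1000 to 2000 bp (27.0% to 31.5%). The last share did not differ from the 28.9% of CTCF peaks over 2 kb away beyond its interval. The corresponding HPC shares were 55.4%, 36.03%, 18.4% and 12.1%, the last again close to the 11.0% of distant peaks. The side made little difference within 200 bp, where 83.0% of upstream and 84.0% of downstream peaks were open in mesoderm. At 500 to 1000 bp, 48.1% of downstream (43.2% to 53.0%) and 37.8% of upstream peaks (33.9% to 41.9%) were open in mesoderm, whereas in HPCs the shares were 17.4% and 19.2%. At 200 to 500 bp upstream peaks had the higher share in both stages (63.9% against 58.6% in mesoderm and 39.2% against 32.0% in HPCs), and the same held over all members (54.3% against 47.5% and 32.1% against 23.8%), so that no side was more open at every distance.

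**Figure D2:**
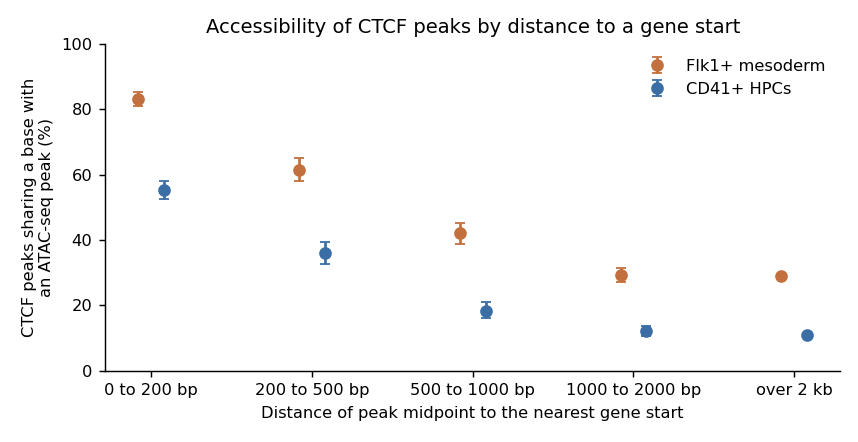
Share of CTCF peaks that share a base with an ATAC-seq peak (y axis, percent) by distance of the midpoint to the nearest gene start (x axis), in Flk1+ mesoderm and CD41+ HPCs, with Wilson 95% intervals. The mesoderm share falls from 83.2% to 29.2% and the HPC share from 55.4% to 12.1%, the levels of peaks over 2 kb away being 28.9% and 11.0%.

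In member peaks, sequence composition and peak width moved with accessibility. The median GC content was 59.4% in member peaks open in both stages, 56.5% in those open in mesoderm only, 49.0% in those open in HPCs only and 47.7% in those open in neither. CpG dinucleotides numbered 5.98, 3.84, 2.62 and 1.44 per 100 bp in these classes (medians), against 0.976 in CTCF peaks over 2 kb away. Median widths were 277, 276, 264 and 230 bp. The core letters were present in 44.5%, 47.4%, 43.1% and 50.2% of the classes. The gene start itself was accessible in mesoderm (an ATAC-seq peak within 100 bp) for 81.8% of the sites open in both stages, and for 48.4% of the sites open in neither, so that many closed CTCF peaks lay beside an accessible start.

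Genes at promoter-proximal CTCF sites were expressed at higher levels than genes without such a site. Their median level per length was 0.0437 CPM per kb of gene span in mESCs, 0.0408 in mesoderm and 0.0432 in HPCs, against 0.00558, 0.00325 and 0.00198 CPM per kb for 20468 genes without a site. Medians of single libraries lay between 0.0336 and 0.0435 CPM per kb for genes with a site and between 0 and 0.00518 for genes without, so that the sets did not overlap in any library. Among protein-coding genes the medians in HPCs were 0.0533 and 0.00569 CPM per kb. More of the genes with a site were detected, since 3093 of 4493 (68.8%) passed the low-count filter of edgeR against 47.3% of genes without a site, and among genes that passed the HPC medians were closer, at 0.0842 and 0.0657 CPM per kb. Over all genes, levels differed with the class of the nearest site. The HPC median was 0.0651 CPM per kb for 1332 genes whose site was open in both stages, 0.0356 for 1111 genes with a site open in mesoderm only, 0.0161 for 74 genes with a site open in HPCs only and 0.0307 for 1976 genes with a site open in neither. Genes with a site within 500 bp had 0.0576 CPM per kb in HPCs, and genes with a site at 1000 to 2000 bp 0.0209. Among the genes that passed the filter, sites open in neither stage no longer went with lower levels than sites open in both: the HPC medians were 0.0849 CPM per kb with a site open in both stages, 0.0769 with a site open in mesoderm only, 0.0401 with a site open in HPCs only (43 genes) and 0.0894 with a site open in neither. The fall with distance was not seen in them either, with 0.0816 and 0.0858 CPM per kb with a site within 500 bp and at 1000 to 2000 bp.

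From mESCs to mesoderm, 694 of 3093 genes at promoter-proximal CTCF sites that could be tested were changed (22.4%), with 309 higher and 385 lower in mesoderm. A change was called at an adjusted p under 0.05 from edgeR's quasi-likelihood test and an absolute log2 fold change over 1. By the same call, 24.4% of all 12899 genes tested were changed, 10.8% higher and 13.6% lower, so that the genes at CTCF sites (9.99% and 12.4%) were close to the background. Their median log2 fold change was -0.20, beside -0.18 over all genes. The tests rest on technical replicates of mESCs, and leaving out either mESC library gave 229 and 227 genes, in fits where mESCs are a single library assumed to vary like the other groups. DESeq2 called 609 of 3261 genes at sites with the opposite balance, 355 higher and 254 lower, beside 2723 of all 13605 genes tested. The balance over all genes was not taken for DESeq2, so the shift is not read as a trait of these genes.

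The 6 genes ranked first among those higher in mesoderm were Zfp703, Cbfa2t3, Kdm6b, Col23a1, Bmp2 and Tgfb1. Zfp703, a transcriptional corepressor with a site 628 bp upstream, had 0.0147 and 0.0266 CPM in mESCs, 3.93, 4.13 and 4.63 CPM in mesoderm and 0.133, 0.336, 0.344 and 0.347 CPM in HPCs (log2 fold change 7.51 ± 0.46 (SE), adjusted p = 1.35e-05, edgeR). It thus peaked in mesoderm. Its libraries did not overlap between stages, which the ranking required for mesoderm against mESCs and for HPCs against mesoderm. Cbfa2t3, a corepressor of the ETO family that partners TAL1 in blood progenitors, has a site 1670 bp downstream of its start, in an intron (chr8:125221207-125221471). It had 0.133 and 0.173 CPM in mESCs, 4.54, 4.58 and 4.94 CPM in mesoderm and 23.9, 30.4, 32.03 and 32.97 CPM in HPCs, and rose at each step (log2 fold change 4.93 and then 2.67, adjusted p = 1.35e-05 and 1.55e-05, edgeR). Tgfb1, the ligand of the TGF-beta receptors, rose likewise from a mean of 0.164 to 3.25 and then 21.6 CPM, and its sites 185 bp upstream and 1252 bp downstream were both closed. Kdm6b, an H3K27 demethylase, Col23a1, a collagen, and Bmp2, a ligand of the BMP pathway, rose in mesoderm (log2 fold change 3.41, 6.16 and 5.72) and fell again in HPCs (-1.55, -2.17 and -2.25). For Bmp2, whose site is printed above, the libraries held 0.0266 and 0.0295 CPM in mESCs, 1.47, 1.62 and 1.96 CPM in mesoderm and 0.172, 0.231, 0.449 and 0.531 CPM in HPCs.

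The 6 genes ranked first among those lower in mesoderm were Tdrd12, L1td1, Ccdc88c, Prrg4, Nanog and Morc1. Nanog, a core pluripotency factor with an intronic site 1571 bp downstream, had 3.73 and 4.22 CPM in mESCs and 3 counts in all over the mesoderm libraries, a ratio of 40.6 (95% interval for counting error 13.9 to 198; adjusted p = 0.000139, edgeR). L1td1, an RNA-binding protein of mESCs, had 10.5 and 14.9 CPM in mESCs and a single count in mesoderm (ratio 376, 67.5 to 14870), and Tdrd12, a piRNA pathway protein, had 12.4 and 13.1 CPM and 2 counts (ratio 199.9, 55.3 to 1651). Morc1, a germline repressor of transposons, with a site 18 bp upstream, and Prrg4 were likewise left with a single count in mesoderm. Ccdc88c, a regulator of Wnt and G protein signalling, fell from 20.1 and 21.4 CPM in mESCs to 1.41, 2.29 and 2.84 CPM in mesoderm, a log2 fold change of -3.26 (adjusted p = 0.000107, edgeR). Of its pair of sites, the one 641 bp upstream, printed above, was open in both stages and the one 143 bp upstream in neither.

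From mesoderm to HPCs, 667 of the 3093 genes were changed (21.6%), 339 higher and 328 lower, beside 23.3% of all genes tested (10.8% higher and 12.5% lower). Genes at CTCF sites were called higher in 11.0% and lower in 10.6% of cases, again close to the background, with a median log2 fold change of 0.00 beside -0.01 over all genes. In 619 of the 667 genes the libraries of the stages did not overlap. This count was not made over all called genes, so it is not read as a trait of genes at sites. Leaving out a library in turn gave 541 to 702 genes.

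The genes that led the increase in HPCs differed in the state of their sites. Ache, acetylcholinesterase, an enzyme of megakaryocytes and erythroid cells as well as of synapses, had 8.76, 9.16, 10.06 and 11.8 CPM in HPCs and a single count over the mesoderm libraries, a ratio of 315 (56.1 to 12480; adjusted p = 1.27e-05, edgeR). Its sites were open in mesoderm only (1058 bp downstream) and in neither stage (1398 bp upstream). Ltbp2, a binding protein of the extracellular matrix, with a site open in mesoderm only, likewise went from a single count to 5.84 to 14.5 CPM. Atp8a1, a phospholipid flippase with a site 311 bp upstream open in both stages, rose from 4.46, 4.70 and 5.07 CPM to 41.7, 69.3, 71.1 and 97.5 CPM (log2 fold change 3.89 ± 0.30 (SE), adjusted p = 1.55e-05, edgeR). Aftph, a protein of clathrin-mediated trafficking whose site is printed above and was open in neither stage, rose from 2.67, 2.74 and 2.78 CPM to 17.4, 19.9, 24.8 and 26.6 CPM (log2 fold change 3.02). Ell2, an elongation factor of RNA polymerase II, and Cep70, a centrosomal protein, rose by 4.27 and 3.69 on the log2 scale. In all of these genes every HPC library was above every mesoderm library, since only genes with separate libraries were ranked.

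Among the genes that fell in HPCs, Zfp423, a zinc finger factor of mesenchymal and neural progenitors, dropped from 19.96, 21.1 and 38.6 CPM in mesoderm to 0.266, 0.561, 0.859 and 1.27 CPM (log2 fold change -5.16 ± 0.39 (SE), adjusted p = 1.55e-05, edgeR). Its pair of upstream sites was closed in both stages. Nectin1, a cell adhesion molecule, dropped from 3.61, 5.89 and 6.72 CPM to 0.133, 0.172, 0.224 and 0.231 CPM, and its site 282 bp upstream was open in mesoderm only. The other genes of the 6 lowest adjusted p-values were Zfp703 (-3.85) and the predicted genes Gm37013, Gm38666 and Gm38667 on chromosome 18, with log2 fold changes of -2.38, -2.36 and -2.36. The spans of these 3 genes run through the clustered protocadherin genes, each overlaps 60 other genes on its own strand, and their counts were identical in every HPC library, so that they stand for a single signal of the cluster. Protocadherins of this cluster are cell surface proteins whose alternative promoters are classical CTCF targets. The level of Gm37013 was 31.7, 34.0 and 37.2 CPM in mesoderm and 5.18, 5.33, 7.4 and 8.30 CPM in HPCs, and its site 562 bp downstream, in a coding exon, was open in both stages and carried the core on the gene's strand.

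**Figure D3:**
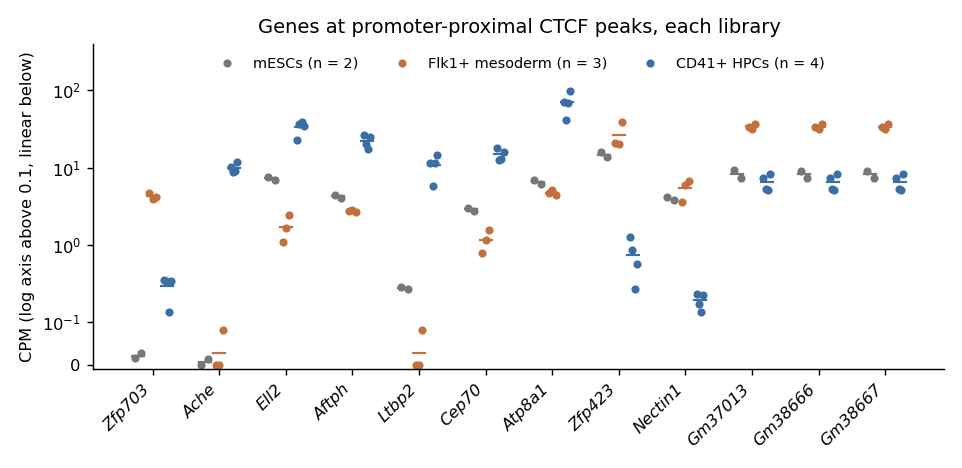
Level of the 6 higher and 6 lower genes at promoter-proximal CTCF peaks ranked first by adjusted p in HPCs against mesoderm (y axis, CPM, logarithmic above 0.1 and linear below), with a point per library and a line at the mean of each stage. In 6 genes, from Ache to Atp8a1, all HPC libraries lie above all mesoderm libraries, and in the other 6 all lie below. Only genes with such separate libraries were ranked.

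Transcription factors of blood were represented by 7 of 30 listed genes (23.3%, beside 18.0% of all genes), of which 6 could be tested and 4 rose and 1 fell in HPCs. Over all genes tested, 10.8% were called higher and 12.5% lower. Listed genes without a site were not compared, so that counts called here and in the lists below are not read as a trait of the sites. Gfi1b, a repressor required for erythroid and megakaryocytic cells, with a closed site 746 bp upstream that held the core on its own strand, had 0, 0.324 and 0.654 CPM in mesoderm and 6.51, 6.62, 9.62 and 11.8 CPM in HPCs (log2 fold change 5.0004 ± 0.60 (SE), adjusted p = 0.000183, edgeR). Lyl1, a basic helix-loop-helix factor related to TAL1, rose by 2.37 on the log2 scale and Zbtb16 by 2.13. Lyl1 overlaps Nfix on the other strand, and whether the counting used strand is not stated. Klf1, the erythroid master factor, had 3 counts in mesoderm and 0.673 to 2.58 CPM in HPCs (ratio 14.5, 4.63 to 72.9; adjusted p = 0.0115, edgeR). The call of Klf1 was lost without the mesoderm library C8.1 (adjusted p = 0.0528, edgeR). Mecom, a factor of stem cells and of endothelium, fell (log2 fold change -4.36, adjusted p = 0.00652, edgeR) from 1.96, 9.64 and 37.9 CPM in C6.1, C8.1 and B9.3 to 0, 0.112, 0.809 and 2.75 CPM, so that its groups overlapped. Its level in mesoderm had the same order over the clones as the endothelial markers given above, and their part in the change was not tested. Kmt2a was expressed at 23.96 CPM in mesoderm and 22.9 CPM in HPCs and was not called (log2 fold change -0.07, SE 0.18), and Cebpa was too low to be tested.

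Of the blood surface and signalling genes, 4 of 24 had a site (16.7%), and 3 of these rose. Itgb3, the integrin beta chain of platelets and megakaryocytes, with a site open in mesoderm only just inside the gene, had 0, 0.314 and 0.810 CPM in mesoderm and 59.4, 70.1, 151 and 152 CPM in HPCs (log2 fold change 7.95 ± 0.64 (SE), adjusted p = 1.58e-05, edgeR). Gp9, a platelet glycoprotein, had no count in mesoderm and 0.172, 0.266, 1.39 and 1.46 CPM in HPCs, at least 9.42-fold higher with a floor of 3 counts over the mesoderm libraries (adjusted p = 0.0153, edgeR). The receptor tyrosine kinase Kit was not called, with 1.96, 7.78 and 24.8 CPM in mesoderm and 4.25 to 9.64 CPM in HPCs.

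Of the vascular genes, 5 of 22 had a site (22.7%). The 3 that could be tested (Nrp1, Plvap and Esam) were called higher in mesoderm than in mESCs. None of them was called in HPCs against mesoderm. Single libraries stood apart in each. Nrp1, a co-receptor of VEGF, had 33.2 to 35.0 CPM in mesoderm and 1.06, 1.72 and 2.13 CPM in the HPC libraries C6.1, B9.3-2 and C8.1, but 33.2 CPM in the HPC library B9.3. Plvap and Esam, genes of the endothelial surface, had 6.51 and 3.92 CPM in the mesoderm library B9.3, which also had the highest endothelial marker sum. The mesoderm libraries C6.1 and C8.1 had 0.164 and 0.162 CPM of Plvap and 0.491 and 0.324 CPM of Esam. In mESCs, Plvap had 0.118 and 0.159 CPM and Esam 0.243 and 0.279 CPM, so that most of their rise lay in B9.3. Of the primitive streak and early mesoderm genes, 5 of 23 had a site (21.7%) and only Snai1 could be tested. Snai1, a repressor that drives epithelial-to-mesenchymal transition, had 1.25, 1.70 and 2.62 CPM in mesoderm and no count in HPCs, at least 17.5-fold lower with a floor of 3 counts over the HPC libraries (adjusted p = 0.000562, edgeR). Of the pluripotency genes, 3 of 23 had a site (13.0%), and all 3 (Nanog, Tdgf1 and Dnmt3l) fell from mESCs to mesoderm, beside 13.6% of all genes tested. Tdgf1, a co-receptor of Nodal whose intronic site is printed above, had 12.3 and 13.6 CPM in mESCs and 0.162, 0.392 and 1.31 CPM in mesoderm, and was not detected in HPCs.

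The largest share with a site was found for genes of CTCF, cohesin and associated factors, with 10 of 21 listed genes in the table (47.6%). The list was chosen with results of these data known, and no test was made of this share. CTCF's own gene has a site 278 bp downstream of its start, open in both stages, and was expressed at means of 8.096, 11.57 and 11.64 CPM in mESCs, mesoderm and HPCs (log2 fold change between the last 2 stages 0.01, SE 0.21). Sites of the cohesin subunits or regulators Smc3, Stag1, Nipbl, Pds5a and Pds5b were also open in both stages, while those of Stag2 and Esco1 were open in mesoderm only. Of the associated factors, Zfp143 had a site open in both stages and Maz a site open in neither. Of these 10 genes only Esco1, an acetyltransferase of cohesin with a site 104 bp upstream on chromosome 18, was called in HPCs against mesoderm (mean of 2.17 CPM in mesoderm and 5.69 CPM in HPCs, log2 fold change 1.43 ± 0.29 (SE), adjusted p = 0.00331, edgeR). The cardiac and other lineage list had 2 of 20 genes with a site (10%), both too low to be tested, and the imprinted list 0 of 29, which allows a share of up to 10.3% at 3 genes.

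Expression by class of site is described without a test, since genes are not replicates. In HPCs against mesoderm, genes whose nearest site was open in both stages were called higher in 11.5% and lower in 8.65% of 1075 tested cases. With a site open in mesoderm only, the shares were 10.7% and 13.1% of 749 genes, with a site open in HPCs only 6.98% and 14.0% of 43 genes (3 and 6 genes), and with a site open in neither 10.8% and 10.7% of 1226 genes. Beside the background of 10.8% and 12.5%, genes at sites open in mesoderm only were called lower about as often as any gene, and the HPC-only class was too small to read. Medians of the log2 fold change lay between -0.07 and 0.07 in these classes. By side, 10.4% of genes with an upstream site were higher and 11.2% lower in HPCs, and 12.02% and 9.56% of genes with a downstream site.

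**Figure D4:**
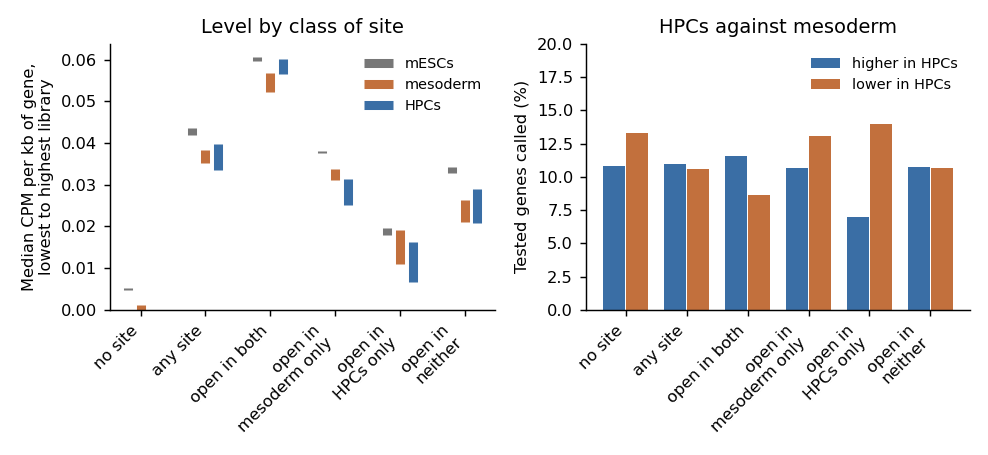
Left, median level of the genes (y axis, CPM per kb of gene span, drawn from the lowest to the highest library median of a stage) without a site, with any site and by accessibility of the nearest site. Right, share of tested genes called higher or lower in HPCs against mesoderm (y axis, percent) in the same classes, for which genes with any site gave 11.0% and 10.6%.

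The genes with the largest changes in these classes went both ways. Thbs1, thrombospondin 1, a glycoprotein of platelets and matrix, had 0.164, 0.405 and 0.549 CPM in mesoderm and 78.7, 91.2, 280 and 340 CPM in HPCs (log2 fold change 8.91 ± 0.74 (SE), adjusted p = 1.87e-05, edgeR). Its site (chr2:117936856-117937140), open in mesoderm only, lies 613 bp upstream and also 60 bp upstream of the divergent long noncoding RNA gene Gm13986, which had no count in mesoderm and 4.30, 5.61, 5.71 and 8.56 CPM in HPCs (at least 64.6-fold higher with a floor of 3 counts over the mesoderm libraries, adjusted p = 5.9e-05, edgeR). Both genes of this shared site thus rose in HPCs, where the site was not called open. Thbs1 was also present in mESCs, at 11.1 and 15.4 CPM, and fell in mesoderm. Among the 50 sites between divergent starts with both genes tested, the genes were called in the same direction at 4, in opposite directions at 0, a single gene was called at 13 and none at 33. The fold changes had the same sign at 25 of the 50. Mgat5b, Ankrd13b and Tdgf1 at mesoderm-only sites had no count in HPCs, and were at least 4.95-fold, 9.58-fold and 4.95-fold lower with a floor of 3 counts over the HPC libraries. Mgat5b, with 15 counts in mesoderm, lost its call in 8 of 9 fits that left out a library, all but that without the mesoderm library B9.3 (adjusted p up to 0.0746, edgeR). At sites open in HPCs only, Gna15, a G protein alpha subunit of blood cells, rose from 0, 0.081 and 0.235 CPM to 0.463, 0.515, 0.664 and 1.57 CPM (log2 fold change 2.67, adjusted p = 0.0237, edgeR), and Pi4k2b and Tmem131l by 1.21 each. The call of Gna15 was lost without the mesoderm libraries C6.1 or C8.1 or the HPC library C8.1 (log2 fold change 2.35, 2.38 and 2.07), and that of Tmem131l without the HPC library C8.1 (0.99). Ltbp4 (at least 6.93-fold lower by the same floor), Rgma and Ypel1 at such sites fell in HPCs. The last 2 overlap a gene on the other strand, as do Ltbp2, Cep70 and Gm13986, and their counts could hold reads of that gene.

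Runx1 itself had 0.810 and 1.21 CPM in mESCs, 5.41, 17.0 and 20.9 CPM in mesoderm and 100.8, 117, 125 and 182 CPM in HPCs (log2 fold change from mesoderm to HPCs 3.19 ± 0.43 (SE), adjusted p = 0.000262, edgeR). Its P2 site was not called open in HPCs, in which its level was highest, while an HPC ATAC-seq peak (chr16:92697584-92697773) lay beside the P2 start itself.

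Deletion of a Runx1 CTCF site was compared with wild type to see whether genes at other promoter-proximal sites changed. In P2-CTCF-KO mesoderm, 1 of 2159 such genes was called (0.0463%), beside 0.0342% of 8778 genes tested. An unadjusted p under 0.05 (edgeR) was found for 323 of the 2159 (14.96%), beside 16.05% of all genes tested. DESeq2 called 31 of the 1751 genes to which it gave an adjusted p, 26 of them lower, and 168 of all 7161 genes. The balance over all 168 genes was not taken, so the direction is not read as a trait of genes at sites. The gene called by edgeR was Cbfa2t3, with 2.38, 2.46 and 2.62 CPM in wild-type mesoderm and 0.253, 0.339 and 0.484 CPM in P2-CTCF-KO (log2 fold change -2.78 ± 0.31 (SE), adjusted p = 0.0224, edgeR). The groups did not overlap. The adjusted p was 0.107 without the P2-CTCF-KO library D10.1, 0.140 without D2.1, 0.0600 without E9.1, 0.137 without the wild-type library C8.1, and 0.0592 and 0.0551 without the P1-CTCF-KO libraries E7.1 and E9.1, which share the fit, while the log2 fold change stayed between -3.07 and -2.56 whichever library was left out. In P1-CTCF-KO mesoderm, Cbfa2t3 had 1.32, 2.01 and 2.12 CPM (log2 fold change -0.47, adjusted p = 0.9999, edgeR). In HPCs its means were 18.7 CPM in P2-CTCF-KO, 24.3 CPM in P1-CTCF-KO and 20.8 CPM in wild type, with overlapping libraries. No gene at a site was called in P1-CTCF-KO mesoderm, P2-CTCF-KO HPCs or P1-CTCF-KO HPCs, where the background was 0% of 8778, 7422 and 7422 genes. In the same order, an unadjusted p under 0.05 (edgeR) was found for 48 of 2159, 36 of 1868 and 62 of 1868 genes at sites. Their shares of 2.22%, 1.93% and 3.32% were close to those of all genes tested, at 1.89%, 1.95% and 3.503%. DESeq2 called 0 genes at sites in each. These comparisons share their wild-type libraries. CPM here are scaled within each stage and differ from those of the stage comparisons. Runx1 itself was not called in any of them (P2-CTCF-KO mesoderm 3.95 ± 2.17 (SD, n = 3) against 7.66 ± 4.25 (SD, n = 3) CPM in wild type, adjusted p = 0.446, edgeR).

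**Figure D5:**
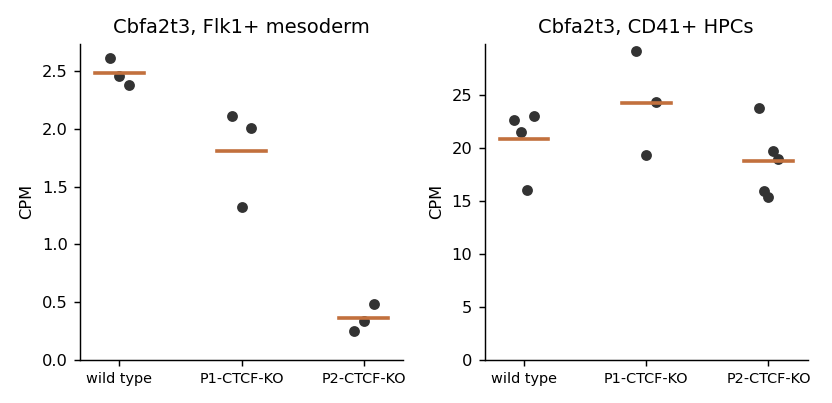
Level of Cbfa2t3 (y axis, CPM) in mesoderm (left) and HPCs (right) of the 3 genotypes, with a point per library and a line at the mean. In mesoderm the 3 P2-CTCF-KO libraries, at most 0.484 CPM, lie below all others, and in HPCs the genotypes overlap.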

How the data were processed

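The members and gene lists were chosen with earlier results of these data known. The authors' peak lists, deposited as mm9 start and end positions (other values in base pairs) without height or p-value, were called with MACS2 on merged libraries, for CTCF against an input at a lenient p threshold. The RNA-seq counts are raw counts as deposited: the authors mapped reads with STAR, removed duplicates and counted them over exons and introns with featureCounts, with no normalization. The annotation and strand setting are not given in the sources used here. No count column was left unused (0).

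Of 25146 genes, 135 with several spans and 50 with a span over 2.5 Mb gave no start. Genes were tested with edgeR 4.0.16 in R 4.3.3 (TMM, filterByExpr with a minimum count of 10, quasi-likelihood test, Benjamini-Hochberg adjustment over all genes) in a fit of 9 wild-type, 9 mesoderm or 12 HPC libraries. All 3 fits took no covariate, and CPM are comparable within a fit only. A floor is 3 counts over a group. The step was tested on simulated counts with 200 changed genes. Peaks, motif letters and shares were computed in Python 3.11.15 with SciPy 1.17.1. No test compares classes of peaks or genes. Peak positions lay within the mm9 chromosomes of the NCBIM37 genome used for sequences. Libraries of a group are separate samples by their labels, but where they share a clone, or are technical replicates as in mESCs, p-values measure only the spread between these libraries. All pairs differed by more than sampling noise (chi-square per degree of freedom 6.23 to 135.1).

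Named genes were Runx1, in each stage comparison the 6 called members per direction that ranked first by adjusted p among those with non-overlapping libraries, called members of the lists, the 3 largest changes per direction at sites open in a single stage, the members at the 2 kb limit, 5 genes with 3 sites and members called between genotypes. Uncalled list members and genes called in mesoderm only (Kmt2a, Cebpa, Kit, the vascular genes, Dnmt3l, the CTCF and cohesin genes) were named after their values were seen. A called list member is not reported here. Alternatives were DESeq2 1.42.0, RLE size factors, no low-count filter, each library left out, a clone block, summed clones, distances of 1 and 5 kb, wider peaks, a 50% overlap and GENCODE transcript starts.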

Additional observations from a re-analysis of the deposited data

Results flagged for a closer look

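In 6 of 54 named genes, 1 of the 4 wild-type HPC libraries lay far from the other 3, by the ratio of its gap to the range. All 6 rest on counts of 0 to 3, for which the usual chance rate of about 1 in 20 groups does not hold. For Zfp703, C6.1 was lowest at 0.133 CPM, with the nearest library at 0.336 CPM. A single count in 1 library, with the others at 0, set Tdrd12 apart at 0.172 CPM (B9.3-2), Nanog at 0.116 CPM (B9.3), Rgma at 0.172 CPM (B9.3-2), and both 5031434O11Rik and Alyref2 at 0.112 CPM (C8.1).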

How the results depend on the processing

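The selection of sites depends on the distance, the start and the peak set. A limit of 1 kb gave 2880 peaks, of which 65.6% were upstream, 64.0% open in mesoderm and 38.1% open in HPCs, and a limit of 5 kb gave 8578 peaks with 56.1%, 39.4% and 19.1%. Peaks wider than the median left 2475, with 65.7%, 62.8% and 35.5%. Transcript starts of GENCODE vM1, an alternative chosen after seeing the data, gave 7593 peaks with 57.8%, 43.4% and 21.2%, and these include the P2 site of Runx1. An overlap of 50% gave 49.4% open in mesoderm and 27.0% in HPCs. More peaks lay upstream than downstream under each of these settings.

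For mesoderm against mESCs, leaving out a library gave 227 to 744 changed genes, with 229 and 227 without either mESC library. For HPCs against mesoderm it gave 541 to 702. A replicate block by clone, on mesoderm and HPC libraries only, gave 432 genes, and the same libraries without the block (chosen after seeing the data) 456. The clones did not deviate together (r of 0.117, -0.119, 0.146 and -0.059 for same-clone pairs) and were not treated as pairs. For P2-CTCF-KO mesoderm, DESeq2 called 31 genes, and leaving out a library gave 0 to 30. The 30 arose without the wild-type library C6.1, and 0 without C8.1, any P2-CTCF-KO library, or the P1-CTCF-KO libraries E7.1 and E9.1. The other counts under RLE factors, no low-count filter, summed clones or 1 kb stayed within 1.5 times the main value, and the other genotype comparisons gave 0 throughout. No fold change of a named gene reversed in HPCs against mesoderm. Leaving out a library ended the call there in 8 of 9 fits for Prrg4 and Mgat5b, 3 for Gna15 and 1 each for Klf1 and Tmem131l, and RLE factors ended that of Prrg4. Leaving out a mESC library leaves a lone mESC library, assumed to vary like the other groups.

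Peaks came from 416B cells and the lists hold no heights or p-values, so that strength of binding could not be compared. HPC libraries had the lowest total counts. Counts in genes at sites overlapped between wild-type mesoderm (74715 to 162839) and wild-type HPCs (70773 to 133953). A gene at 0 in HPC libraries was not detectable at this depth.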
